A study of Mus musculus with 6 samples.

Results

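The comparison set KPCY cells that carried the second short hairpin RNA against Pthlh (hairpin 2, 2 libraries) against cells that carried the first (hairpin 1, 2 libraries), 2 lines in which the same gene was targeted. Genes were taken where the deposited TPM, an abundance scaled for transcript length and library total, was at least 1 in at least 2 of these 4 libraries. That left 11387 of the 24493 genes in the table, and 4 of the 6 libraries of the series, the other 2 carrying a non-targeting hairpin (shNT).

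All libraries came from C57BL/6 mouse pancreatic tumour cells of the KPCY model, an engineered mouse model of pancreatic cancer in which cells of the pancreatic lineage carry a yellow fluorescent label. Every group, shNT included, had been transduced with a hairpin, and RNA was taken with Qiagen RNeasy. The labels describe the cells both as tumour cells sorted after growth in vivo and as cells kept in complete DMEM, so which preceded the RNA is not settled. The series design names 2 parental clones, but the labels of the libraries do not say which was used, so clone and hairpin cannot be told apart here. Nothing in the labels says that the replicates of a line came from separate cultures or animals. The p-values below therefore measure the spread between these libraries only, which may be technical.

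Pthlh encodes PTHrP, a secreted relative of parathyroid hormone that signals through Pth1r, a receptor coupled to cAMP. Pancreatic tumour cells keep parts of the foregut programme of their tissue, and can turn on genes of stomach or intestine. They also range between a tightly joined epithelial state and a matrix-rich, motile one, in which the coactivators YAP and TAZ act through TEAD factors on genes such as Cyr61 and Ankrd1. Bulk RNA does not tell fewer cells of a type from less RNA per cell.

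Pthlh, the targeted gene, was listed at 0 and 0.106 TPM with hairpin 1 and 0.0423 and 0.263 with hairpin 2. Both pairs overlapped and both lay below the shNT libraries, at 0.752 and 0.966 TPM. Without the filter, which Pthlh did not pass, the hairpin 2 minus hairpin 1 difference was 0.13 ± 0.12 (log2 of TPM + 1, SE; limma adjusted p = 0.533; 95% interval -0.18 to 0.44). Pth1r and Pth2r, the receptors of the pathway, were at or below 0.105 and 0.0613 TPM in every hairpin library.

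The same small RNA precursor entry, Mir6236, took 19.7% to 23.4% of all TPM in the hairpin libraries and 24.3% and 34.1% in shNT. Depth cannot be read from TPM. Krt8, a keratin of ductal epithelium, had 1749 and 1818 TPM with hairpin 1 and 1315 and 1385 with hairpin 2. Krt18, Krt19, Krt7 and Cdh1 were abundant in all 4 libraries as well, the lowest value being 232 TPM for Cdh1, while Epcam, at most 0.367 TPM, was close to absent. Of 50 markers of other cell types, 6 passed the filter, and the summed level of the fibroblast, endothelial and islet markers was at most 0.433, 0.109 and 0.105 TPM in a hairpin library. Cd14, a lipopolysaccharide co-receptor of myeloid cells, stood out at 73.8 and 77.5 TPM with hairpin 1 and 60.7 and 59.4 with hairpin 2, while the pan-leukocyte gene Ptprc did not exceed 0.0495 TPM and the macrophage gene Adgre1 was listed at 0 in all of them. The neutrophil gene S100a9 was called higher with hairpin 2 at 0 and 0.33 TPM with hairpin 1 and 1.001 and 1.59 with hairpin 2, a call lost without any 1 of the 4 hairpin libraries (limma adjusted p = 0.0513 to 0.126) and with a pseudocount of 0.1.

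Throughout, a difference is hairpin 2 minus hairpin 1 on the log2(TPM + 1) scale with its SE, a gene is called where its limma adjusted p (Benjamini-Hochberg, over all 11387 genes) lies below 0.05, and n is 2 libraries a line. This scale understates changes of genes with low TPM. A gene below 1 TPM in both libraries of 1 line passed the filter only through the other line, so its direction was fixed. Such genes are counted in the lists and the largest differences below. They include Sox2, Twist2, Thbs1, Mmp3, Mmp13, Cdh3, Grem1, Aldh1a3, Egfr, Sod3, Mcpt8, Ppp1r1b and Serpinb1a. Of 11387 genes, 4634 were called (40.7%), 2292 higher in hairpin 2 cells (20.1%) and 2342 higher in hairpin 1 cells (20.6%), with a median difference of -0.01 over all genes. Differences of at least 1 were rarer, at 196 genes higher with hairpin 2 and 234 higher with hairpin 1. Leaving out 1 hairpin library lowered the count over all genes, so a fall of a list count in such a fit is not by itself particular to the list. The count called was 2563 when hairpin 1 replicate 1 was left out and 2478 when its replicate 2 was, and 2435 and 2549 when the same was done for replicates 1 and 2 of hairpin 2.

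Genes of intestinal and gastric identity were mostly higher in hairpin 1 cells. Among those that passed the filter, Sox2 did so only through hairpin 1 and Muc5ac only through hairpin 2. Of 58 listed genes, 26 passed the filter; 17 of these were higher in hairpin 1 cells, 3 were higher in hairpin 2 cells and 6 were not called, with a median difference of -0.51 against -0.01 over all genes. All of the 8 called members made at the intestinal surface or in the enterocyte cytoplasm were higher in hairpin 1 cells. The gastric and mucous genes were split, 5 higher with hairpin 1 and 3 higher with hairpin 2; the 5 were 3 without either hairpin 1 library.

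Cdx2 (chr5:147300805-147307270; gene positions are those of mm10 in GENCODE M21), the homeobox factor that sets intestinal identity, had 47.8 and 47.9 TPM with hairpin 1 and 0.974 and 1.05 with hairpin 2. The pairs lay far apart, and hairpin 1 cells held 47.2 times the hairpin 2 level; the difference was -4.60 ± 0.10 (limma adjusted p = 2.37e-05). Its close relative Cdx1 was listed at 0 in all 6 libraries. Sox2 (chr3:34650405-34652461), a factor of the early foregut and stomach, was close to 0 in hairpin 2 cells, at 10.2 and 9.39 TPM with hairpin 1 and 0.0449 and 0.14 with hairpin 2. Its difference was -3.30 ± 0.11 (limma adjusted p = 5.39e-05), and -5.73 with a pseudocount of 0.1. Klf4, a factor of differentiated gut epithelium, had 116 and 116 TPM with hairpin 1 and 76.2 and 81.9 with hairpin 2, again with hairpin 1 higher (-0.55 ± 0.06; limma adjusted p = 0.00148).

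Lgals4 (galectin-4, a lectin of intestinal epithelium) reached 195 and 189.5 TPM with hairpin 1 and 31.2 and 29.4 with hairpin 2, a 6.33-fold higher mean with hairpin 1 (-2.62 ± 0.05; limma adjusted p = 2.37e-05). Tmigd1, an adhesion protein of the intestinal brush border, had 13.6 and 13.1 TPM with hairpin 1 and 1.04 and 1.08 with hairpin 2 (-2.80 ± 0.08; limma adjusted p = 4.57e-05). In both genes the 2 libraries of each line lay close together and the lines did not overlap, as was so for 77.3% of all tested genes. Cdh17, the liver-intestine cadherin, had 150.01 and 143 TPM with hairpin 1 and 66.7 and 66.3 with hairpin 2, and Vil1, the microvillus protein villin, 16.3 and 15.7 TPM with hairpin 1 and 11.2 and 11.2 with hairpin 2. Both were higher with hairpin 1, with differences of -1.13 and -0.48. Fabp1, an enterocyte fatty acid binding protein, was not called between the lines (2.23 and 1.7 TPM with hairpin 1 and 2.04 and 1.62 with hairpin 2; limma adjusted p = 0.74), although it was listed at 0 in both shNT libraries.

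Among gastric genes, Anxa10, an annexin of gastric mucosa, had 167 and 163 TPM with hairpin 1 and 45.8 and 52.2 with hairpin 2 (-1.74 ± 0.07; limma adjusted p = 9.34e-05). Tff2, a trefoil peptide of gastric mucus, had 29.9 and 26.8 TPM with hairpin 1 and 15.5 and 9.05 with hairpin 2. Its hairpin 2 libraries were spread wide, both still below hairpin 1, and its call (-1.19 ± 0.23; limma adjusted p = 0.0114) did not hold when replicate 1 or 2 of hairpin 1 was left out (0.0734 and 0.0563). The opposite direction was taken by Ctse, the gastric protease cathepsin E, at 43.8 and 42.1 TPM with hairpin 1 and 67.6 and 75.7 with hairpin 2 (0.72 ± 0.06; limma adjusted p = 0.000987). Muc5ac, the main gel-forming mucin of the stomach surface, was low in both lines and higher with hairpin 2 (0.972 and 0.766 TPM with hairpin 1 and 2.19 and 2.16 with hairpin 2; 0.77 ± 0.12, and 1.24 with a pseudocount of 0.1). Tff1, the trefoil peptide made beside it, had 219 and 242 TPM with hairpin 1 and 273 and 329 with hairpin 2 and was not called (limma adjusted p = 0.279), but was without shNT replicate 1 or 2 (0.0264 and 0.0256). With the filter raised to a mean of 5 TPM, 1 member remained higher with hairpin 2 in place of 3.

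**Figure D1:**
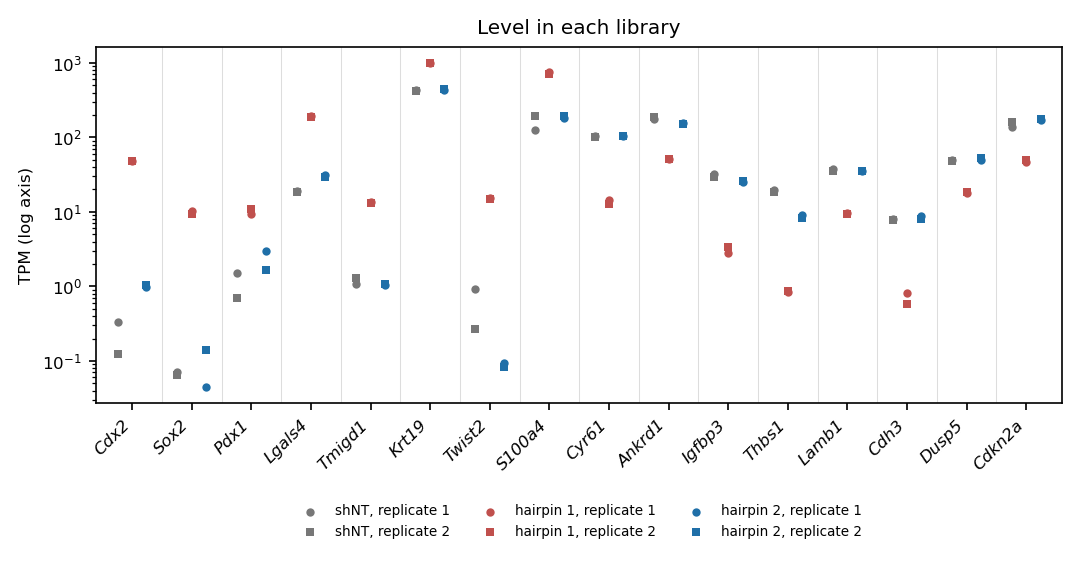
TPM of 16 genes in each of the 6 libraries, on a log axis. Circles and squares are replicates 1 and 2 of shNT (grey), hairpin 1 (red) and hairpin 2 (blue). Cdx2 and Sox2 stood high in both hairpin 1 libraries only, and Cyr61, Igfbp3 and Thbs1 stood low in both, while hairpin 2 lay near shNT for Cyr61 (105 and 104 TPM against 103 and 99.99) and between the other groups for Thbs1.

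Foregut and pancreatic transcription factors were called in both directions. Of 33 listed, 20 passed the filter, 9 were called higher in hairpin 2 cells and 4 higher in hairpin 1 cells, with a median of 0.13. Pdx1, the master factor of the pancreas and duodenum, had 9.42 and 10.9 TPM with hairpin 1 and 2.97 and 1.64 with hairpin 2 (-1.78 ± 0.26; limma adjusted p = 0.00445). Foxa1, a pioneer factor of endoderm, had 10.3 and 11.3 TPM with hairpin 1 and 3.91 and 4.88 with hairpin 2 (-1.13 ± 0.11; limma adjusted p = 0.00115), and Sox9, the factor of pancreatic ducts, 9.02 and 8.85 TPM with hairpin 1 and 4.73 and 5.02 with hairpin 2 (-0.76 ± 0.06). Hairpin 1 was the higher line in these 3. In the other direction, Sox4, a factor of progenitor cells, had 53.5 and 52 TPM with hairpin 1 and 95.4 and 99.6 with hairpin 2 (0.87 ± 0.07; limma adjusted p = 0.000638), and Gata5, a GATA factor of endoderm, 28.5 and 29.7 TPM with hairpin 1 and 40.4 and 43.2 with hairpin 2 (0.51 ± 0.05, or 0.22 with each chromosome centred on its median).

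Gata4, a GATA factor of foregut endoderm, was higher with hairpin 2 by 0.35 ± 0.05, while Gata6, its relative that marks the classical form of the human disease, was not called at 21.9 and 22.6 TPM with hairpin 1 and 21.3 and 21.9 with hairpin 2 (limma adjusted p = 0.634). Onecut3, a further factor of the foregut, did not pass either, with a difference of 0.00. Hnf4a, the hepatocyte and gut nuclear factor, was abundant in both lines (97.4 and 95.6 TPM with hairpin 1 and 107 and 106 with hairpin 2); its call with hairpin 2 higher (0.14 ± 0.04; limma adjusted p = 0.0491) was lost in 11 of 17 alternatives, among them the 4 without 1 hairpin library (limma adjusted p = 0.148 to 0.211), and it turned to -0.14 with chromosomes centred. The 9 calls with hairpin 2 higher were 5 after that centring, 5 without small RNA entries, 6 and 5 without replicates 1 and 2 of hairpin 1, and 4 and 3 without those of hairpin 2. The 39 Hox genes listed, the factors that mark position along the body, were below the filter.

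The YAP and TEAD genes went the other way. Of 40 listed, 37 passed the filter, 27 were higher in hairpin 2 cells, 2 were higher in hairpin 1 cells and 8 were not called, with a median of 0.42. Of the 23 tested targets, 20 were higher with hairpin 2 and 2 with hairpin 1, and that count of 20 was 18 to 20 in the fits that left out 1 library. The 2 were Foxf2 (-0.49) and Birc5 (-0.22), the second of which is also a gene of mitosis; its call ended when replicate 2 of hairpin 1 was left out (limma adjusted p = 0.142), when replicate 1 or 2 of hairpin 2 was (0.145 and 0.0977) and without small RNA entries, each of which left 1 of the 2.

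The promoters of 3 genes are printed to show the letters that were searched for. The sequences are the 250 bases before the RefSeq start, build GRCm38.p6, written 5′ to 3′ on the gene's own strand. The motif of TEAD factors, CATTCC or its reverse complement GGAATG, is in capitals in Cyr61 (RefSeq Ccn1, chr3:145649986-145650235, minus strand) and Ankrd1 (chr19:36119845-36120094, minus strand). The core motif of CDX factors, TTTATG or CATAAA, is in capitals in the second RefSeq start of Tmigd1 (chr11:76901909-76902158, plus strand).
Cyr61: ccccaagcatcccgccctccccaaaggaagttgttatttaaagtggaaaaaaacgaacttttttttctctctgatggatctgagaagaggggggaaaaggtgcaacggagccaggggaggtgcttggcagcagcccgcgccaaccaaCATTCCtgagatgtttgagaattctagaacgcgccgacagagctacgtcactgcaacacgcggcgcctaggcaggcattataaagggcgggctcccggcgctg
Ankrd1: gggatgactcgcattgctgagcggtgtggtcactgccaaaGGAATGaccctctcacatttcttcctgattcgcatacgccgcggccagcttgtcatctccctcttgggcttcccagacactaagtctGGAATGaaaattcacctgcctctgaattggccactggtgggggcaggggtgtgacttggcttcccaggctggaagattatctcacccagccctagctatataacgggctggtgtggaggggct
Tmigd1: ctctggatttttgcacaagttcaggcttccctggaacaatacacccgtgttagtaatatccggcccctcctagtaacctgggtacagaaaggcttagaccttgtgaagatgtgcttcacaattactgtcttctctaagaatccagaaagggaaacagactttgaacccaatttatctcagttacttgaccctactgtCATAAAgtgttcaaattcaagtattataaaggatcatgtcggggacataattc
In Cyr61 the match starts 103 bases before the start, in Ankrd1 the 2 matches start 210 and 123 bases before it, and in Tmigd1 the match starts 53 bases before it. The same window of Igfbp3 held no TEAD letters, and those of Cdx2, of Sox2 and of the first Tmigd1 start held no CDX letters. Of 20 TEAD targets higher with hairpin 2, 14 had a promoter in the table and 8 of these (57.1%) held the letters on either strand, as did 12.6% of all 32851 promoters. For the intestinal and gastric genes higher with hairpin 1 it was 2 of 13 (15.4%), against 10.8% of all promoters. Of the 9006 tested genes with a promoter, 12.5% held the TEAD letters and 7.1% the CDX letters. These shares, like those of the members, count a gene if any of its promoters matched, while the shares of all promoters count each promoter singly. The TEAD targets were listed for being targets, and those not higher with hairpin 2 were not compared. Their share therefore does not describe hairpin 2 cells. The motifs do not overlap one another, and a match describes letters, not binding.

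Cyr61 (chr3:145646976-145649981), a secreted matrix protein and a direct YAP target, had 14.5 and 12.6 TPM with hairpin 1 and 105 and 104 with hairpin 2, a 7.7-fold higher mean with hairpin 2 (2.86 ± 0.07; limma adjusted p = 2.37e-05). Ankrd1, a nuclear ankyrin-repeat protein used as a readout of YAP, had 51.6 and 50.5 TPM with hairpin 1 and 154 and 150.4 with hairpin 2 (1.56 ± 0.05; limma adjusted p = 5.39e-05). Igfbp3, a carrier of insulin-like growth factors, had 2.78 and 3.42 TPM with hairpin 1 and 25.5 and 25.6 with hairpin 2 (2.70 ± 0.09; limma adjusted p = 5.39e-05). In each of them both hairpin 2 libraries lay far above both hairpin 1 libraries, while the lines did not overlap, in either direction, in 77.3% of all tested genes.

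Amotl2, a scaffold that holds YAP back, had 12.7 and 12.7 TPM with hairpin 1 and 36.4 and 37.1 with hairpin 2 (1.46 ± 0.06), and Lats2, a kinase that inactivates YAP, 8.53 and 7.78 TPM with hairpin 1 and 15.4 and 14.8 with hairpin 2 (0.82 ± 0.10). Both are themselves YAP targets. Ctgf, the best known target beside Cyr61, differed less, at 15.7 and 16.6 TPM with hairpin 1 and 22.1 and 21.3 with hairpin 2 (0.40 ± 0.06; limma adjusted p = 0.00446), and Axl, a receptor kinase, had 144 and 143 TPM with hairpin 1 and 205 and 208 with hairpin 2 (0.52 ± 0.05). Nt5e, a surface nucleotidase, was the 1 tested target that was not called (22.1 and 21.2 TPM with hairpin 1 and 18 and 20.5 with hairpin 2; limma adjusted p = 0.119). The coactivators themselves were higher with hairpin 2: Yap1 had 39.9 and 38.2 TPM with hairpin 1 and 61.2 and 59.6 with hairpin 2 (0.62 ± 0.04; limma adjusted p = 0.000525) and Wwtr1, which encodes TAZ, 23.7 and 22.3 TPM with hairpin 1 and 34.3 and 35.2 with hairpin 2 (0.58 ± 0.05; limma adjusted p = 0.000789). The upstream components Nf2, Sav1 and Mob1a, which keep the Hippo kinases active, were not called, with differences of 0.00, -0.11 and 0.04. Among all tested pathway components the share called was 50%, against 40.7% over all genes. The 4 TEAD genes were called higher with hairpin 2 by 0.19 to 0.50. Tead1, Tead2 and Tead4 lost their calls without any 1 hairpin library (limma adjusted p = 0.0685 to 0.134, 0.129 to 0.203 and 0.0529 to 0.0782), and Tead3 without hairpin 1 replicate 1 or 2 (0.0621 and 0.0532). Of 14 tested pathway components 7 were higher with hairpin 2, but 3 without either hairpin 1 library and 4 without either hairpin 2 library.

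**Figure D2:**
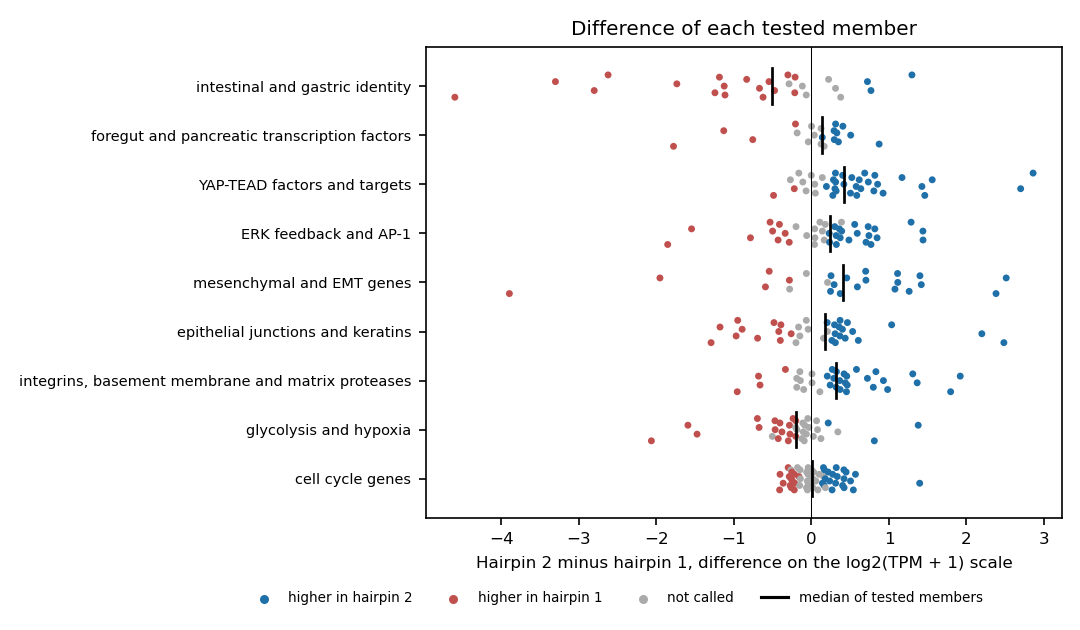
Difference of each tested member of 9 gene lists (x axis, hairpin 2 minus hairpin 1, log2 of TPM + 1), one row a list, with the height within a row used only to separate points. Blue and red points were called, grey points were not, and the black bar is the median of the tested members, -0.51 for intestinal and gastric identity and 0.42 for YAP and TEAD genes.

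Genes of adhesion and matrix were mostly higher in hairpin 2 cells. Of 52 integrins, basement membrane proteins, matrix proteases and their inhibitors, 35 passed the filter, 23 were higher with hairpin 2, 4 were higher with hairpin 1 and 8 were not called (median 0.32). Basement membrane genes made up 10 of the 23. Lamb1, a laminin beta chain, had 9.73 and 9.35 TPM with hairpin 1 and 35.5 and 35.6 with hairpin 2 (1.80 ± 0.05; limma adjusted p = 3.75e-05), with both hairpin 1 libraries far below. Lamb3 and Lama5, further laminin chains, were higher with hairpin 2 by 0.98 ± 0.06 and 0.93 ± 0.06, and the collagen IV chains Col4a1 and Col4a2 by 0.45 ± 0.07 and 0.36 ± 0.05. Col4a5, a less common collagen IV chain, was low and went the other way (2.45 and 2.52 TPM with hairpin 1 and 1.12 and 1.22 with hairpin 2; -0.68 ± 0.11, and -1.03 with a pseudocount of 0.1).

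Integrins were called in both directions, 8 higher with hairpin 2, which were 5 without any 1 hairpin library, and 3 with hairpin 1. Itgb1, the beta chain that most integrins share, had 242 and 235 TPM with hairpin 1 and 294 and 302 with hairpin 2 (0.32 ± 0.05; limma adjusted p = 0.00465), and its partner Itga3, a laminin receptor chain, 118 and 115 TPM with hairpin 1 and 158 and 162 with hairpin 2 (0.46 ± 0.04). Itgb4, the hemidesmosome beta chain, had 22.1 and 21.3 TPM with hairpin 1 and 13.5 and 13.2 with hairpin 2 (-0.66 ± 0.05; limma adjusted p = 0.000684), and Itgb3 4.84 and 5.07 TPM with hairpin 1 and 2.16 and 1.97 with hairpin 2 (-0.96 ± 0.09). For these 2 the hairpin 1 libraries were the higher. Itga2, a collagen receptor chain, was not called at 19.8 and 19 TPM with hairpin 1 and 19.4 and 19.6 with hairpin 2 (difference 0.01; limma adjusted p = 0.913).

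Among proteases, Mmp13, a collagenase, had 0.586 and 0.99 TPM with hairpin 1 and 5.68 and 5.76 with hairpin 2 (1.92 ± 0.12; limma adjusted p = 0.000339). Mmp3 (stromelysin) was at or near 0 with hairpin 1 and had 1.84 and 1.52 TPM with hairpin 2 (1.36 ± 0.12, and 3.72 with a pseudocount of 0.1). Both activators of plasminogen were higher with hairpin 2, Plat at 63.8 and 63.3 TPM with hairpin 1 and 154 and 163 with hairpin 2 (1.31 ± 0.05; limma adjusted p = 6.76e-05) and Plau by 0.80 ± 0.07. Their receptor gene Plaur (-0.19) and the membrane protease gene Mmp14 (-0.14) were not called, but both were without shNT replicate 1 or 2 (limma adjusted p = 0.00653 and 0.00638 for Plaur and 0.0206 and 0.02 for Mmp14). With the filter raised to a mean of 5 TPM, 2 members of this list were higher with hairpin 1 in place of 4.

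Of 45 mesenchymal genes, 24 passed the filter, 16 were higher in hairpin 2 cells, 5 were higher in hairpin 1 cells and 3 were not called (median 0.41). Thbs1, the matrix protein thrombospondin 1, had 0.831 and 0.874 TPM with hairpin 1 and 9.02 and 8.3 with hairpin 2 (2.38 ± 0.07; limma adjusted p = 4.25e-05). Timp3, an inhibitor of metalloproteases bound to matrix, had 1.27 and 1.37 TPM with hairpin 1 and 12.5 and 12 with hairpin 2 (2.51 ± 0.06), and Sparc, a collagen-binding protein, 11.2 and 11.3 TPM with hairpin 1 and 29.1 and 27.5 with hairpin 2 (1.26 ± 0.05). Fn1, fibronectin, was higher by 0.70 ± 0.07. Hairpin 2 was the higher line in these 4, but Thbs1 passed the filter only through hairpin 2, so its direction was fixed.

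Of 11 tested cytoskeletal and adhesion members, 7 were higher with hairpin 2, 2 were higher with hairpin 1 and 2 were not called. Among the 7, Cnn3 and Cnn2, calponins that bind actin, had differences of 1.11 ± 0.05 and 1.11 ± 0.04, and Fermt2, which activates integrins, 1.42 ± 0.07. Cdh2, N-cadherin, had 20.5 and 19.6 TPM with hairpin 1 and 32.7 and 33.6 with hairpin 2 (0.70 ± 0.07; limma adjusted p = 0.00139). Vim, vimentin, was abundant in both lines (1438 and 1444 TPM with hairpin 1 and 1744 and 1787 with hairpin 2); its call (0.29 ± 0.07) was lost without any 1 hairpin library (limma adjusted p = 0.123 to 0.154), and the difference was 0.01 with each chromosome centred on its median. Lgals1, galectin-1, was not called (-0.07 ± 0.13; limma adjusted p = 0.715). The fibroblast markers summed to 0.354 and 0.386 TPM with hairpin 1 and 0.433 and 0.423 with hairpin 2. Fibrillar collagens of fibroblasts such as Col1a1 stayed below the filter, at most 0.278 TPM.

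The mesenchymal transcription factors were called in both directions. Twist2 (chr1:91801461-91848028), a bHLH factor known as an inducer of epithelial-mesenchymal transition, had 15.4 and 15.1 TPM with hairpin 1 and 0.093 and 0.0826 with hairpin 2, the reverse of the matrix genes. Its difference was -3.90 ± 0.20 (limma adjusted p = 0.000208), and -6.35 with a pseudocount of 0.1. S100a4, a calcium-binding protein of motile cells, was higher with hairpin 1 as well, at 759 and 715 TPM with hairpin 1 and 183 and 196 with hairpin 2 (-1.95 ± 0.19; limma adjusted p = 0.00132). Snai2 and Zeb1, repressors of epithelial genes, were called higher with hairpin 2. Snai2 had 1.85 and 1.87 TPM with hairpin 1 and 3.35 and 3.27 with hairpin 2, and Zeb1 had 7.79 and 7.4 TPM with hairpin 1 and 9.12 and 9.26 with hairpin 2; both calls were lost without any 1 of the hairpin libraries (limma adjusted p = 0.0591 to 0.0672 and 0.059 to 0.103). With each chromosome centred on its median the call of Snai2 ended as well (0.32, against 0.59; limma adjusted p = 0.0897). Twist1, at 0 in all 4 hairpin libraries, and Snai1 were below the filter.

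Epithelial junction and keratin genes were divided. Of 57 listed, 34 passed the filter, 16 were higher with hairpin 2, 11 were higher with hairpin 1 and 7 were not called (median 0.18). The 16 were 8 and 11 without replicates 1 and 2 of hairpin 1, and 10 and 9 without those of hairpin 2. Cdh3, P-cadherin, had 0.821 and 0.577 TPM with hairpin 1 and 8.83 and 8.12 with hairpin 2 (2.48 ± 0.10; limma adjusted p = 9.32e-05). Cldn6, a claudin of embryonic epithelium, had 13.1 and 13.2 TPM with hairpin 1 and 64.1 and 63.7 with hairpin 2 (4.86-fold higher with hairpin 2; limma adjusted p = 2.37e-05), and Krt14, a basal keratin, 1.76 and 1.9 TPM with hairpin 1 and 4.05 and 5.65 with hairpin 2 (1.03 ± 0.15). For Cldn6 and Krt14 both hairpin 2 libraries lay above both hairpin 1 libraries, while the lines did not overlap, in either direction, in 77.3% of all tested genes. Cdh3 passed the filter only through hairpin 2, so its direction was fixed.

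Krt19, the keratin of ductal cells, was 2.27-fold higher in hairpin 1 cells, at 990.3 and 988 TPM with hairpin 1 and 428 and 444 with hairpin 2 (-1.18 ± 0.05; limma adjusted p = 0.000148). The tight junction genes Tjp3 and Ocln were higher with hairpin 1 too. Tjp3 had 31.9 and 33.5 TPM with hairpin 1 and 14 and 11.5 with hairpin 2 (-1.29 ± 0.10), and Ocln had 12 and 12.1 TPM with hairpin 1 and 5.59 and 6.47 with hairpin 2 (-0.89 ± 0.09). So it was for Elf3, an ETS factor of differentiated epithelium, at 125 and 127 TPM with hairpin 1 and 62.3 and 67.1 with hairpin 2 (-0.95 ± 0.05; limma adjusted p = 0.000231). Cdh1, E-cadherin, had 238 and 232 TPM with hairpin 1 and 283 and 282 with hairpin 2; its call with hairpin 2 higher (0.26 ± 0.06) was lost without any 1 of the hairpin libraries (limma adjusted p = 0.0776 to 0.106) and after quantile normalization. Tjp1 and Jup, shared parts of tight junctions and of desmosomes, were not called (-0.07 and -0.04).

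**Figure D3:**
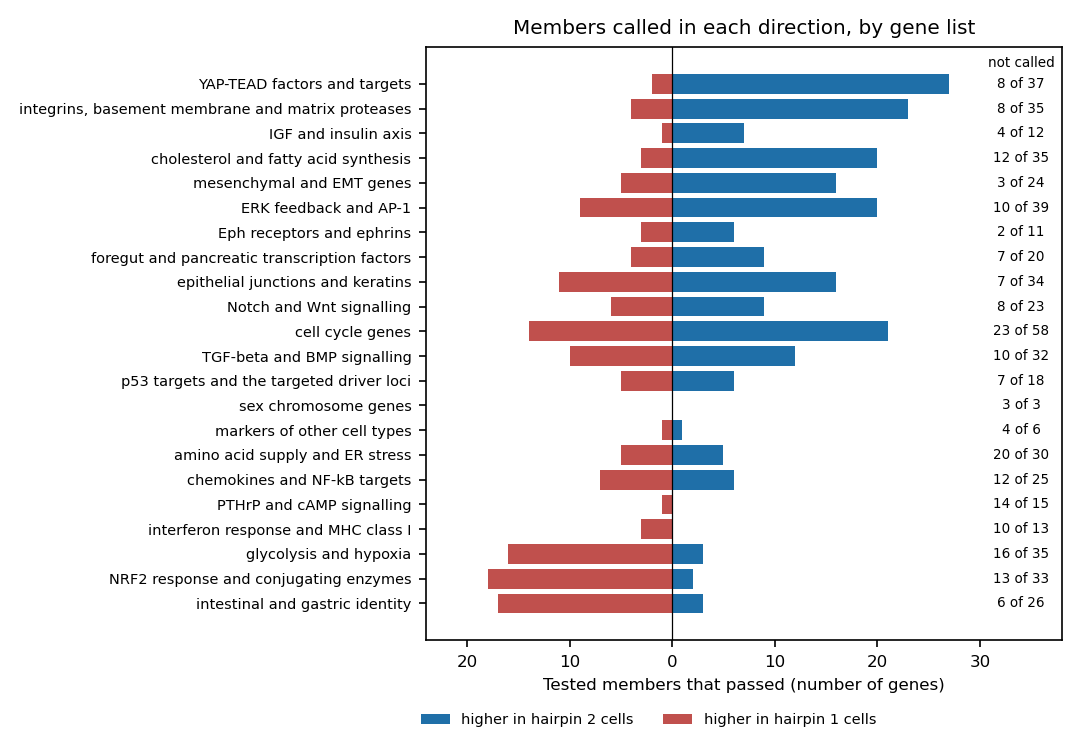
Number of tested members of each gene list that were called higher in hairpin 2 cells (blue, to the right) or in hairpin 1 cells (red, to the left), with the number not called of the number tested at the right edge. YAP and TEAD genes had 27 and 2, and intestinal and gastric genes 3 and 17.

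Genes of ERK signalling and AP-1 differed by member. Of 43 listed, 39 passed the filter, 20 were higher with hairpin 2, 9 with hairpin 1 and 10 were not called (median 0.23); without hairpin 2 replicate 2 the 20 were 12. Of ERK feedback genes, Dusp5, a nuclear ERK phosphatase, had 18 and 18.5 TPM with hairpin 1 and 50.1 and 52.3 with hairpin 2 (1.44 ± 0.04; limma adjusted p = 4.79e-05), and Dusp6, its cytoplasmic relative, 42.1 and 41.2 TPM with hairpin 1 and 63.4 and 63.1 with hairpin 2 (0.59 ± 0.05). Spry1 and Spry4, inhibitors of receptor signalling, went the other way, by -0.43 ± 0.05 and -0.50 ± 0.07. Fosl1, an AP-1 subunit induced by ERK, had 44.8 and 46.6 TPM with hairpin 1 and 79.1 and 83.5 with hairpin 2 (0.82 ± 0.08; limma adjusted p = 0.00109), while Fos and Egr1 were low and not called (0.14 and 0.04).

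The ligands and receptors of the EGF receptor family were divided 4 and 4, with 1 not called. Of these, Egfr passed the filter only through hairpin 2, so its direction was fixed. Erbb3, a receptor for neuregulins, had 14.2 and 13.3 TPM with hairpin 1 and 2.91 and 3.27 with hairpin 2 (-1.85 ± 0.12; limma adjusted p = 0.000438), and Erbb2, its signalling partner, 22.5 and 23.4 TPM with hairpin 1 and 15.3 and 15.8 with hairpin 2 (-0.53 ± 0.06; limma adjusted p = 0.00186). Both were higher in hairpin 1 cells. Nrg1, the neuregulin that binds Erbb3, was higher in hairpin 2 cells, at 3.37 and 3.81 TPM with hairpin 1 and 11.4 and 11.5 with hairpin 2 (1.44 ± 0.07; limma adjusted p = 0.000209). Of the ligands that bind the EGF receptor itself, Hbegf was higher with hairpin 2 (0.77 ± 0.05), Btc and Areg with hairpin 1 (-0.79 ± 0.10 and -0.41 ± 0.04), and Ereg was not called (0.05). The receptor Egfr was low in both lines (0.892 and 0.598 TPM with hairpin 1 and 1.76 and 2.02 with hairpin 2), and its call (0.73 ± 0.13, or 1.26 with a pseudocount of 0.1) did not hold when replicate 2 of hairpin 2 was left out (limma adjusted p = 0.058).

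Glycolysis and hypoxia genes leaned to hairpin 1. Of 40 listed, 35 passed the filter, 16 were higher with hairpin 1, 3 were higher with hairpin 2 and 16 were not called (median -0.20). The 16 higher with hairpin 1 were 9 and 10 without replicates 1 and 2 of that line, and 8 without either hairpin 2 library. With the filter raised to a mean of 5 TPM, the 3 were 1. Pfkp, the platelet form of phosphofructokinase, had 10.6 and 9.12 TPM with hairpin 1 and 1.59 and 1.6 with hairpin 2 (-2.06 ± 0.10; limma adjusted p = 0.000156), and the liver and muscle forms Pfkl and Pfkm were higher with hairpin 1 by -0.68 ± 0.04 and -0.47 ± 0.06. Bnip3, a mitophagy receptor induced by HIF, had 16.3 and 10.8 TPM with hairpin 1 and 4.02 and 4.25 with hairpin 2 (-1.48 ± 0.20; limma adjusted p = 0.00343), with hairpin 1 replicates apart from each other but above both hairpin 2 libraries.

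Abundant glycolytic enzymes were among those not called. Gapdh, Pkm and Eno1 had differences of -0.09, -0.05 and -0.09, and the glucose transporter gene Slc2a1 0.07; Eno1 was called without shNT replicate 1 or 2 (limma adjusted p = 0.0456 and 0.0449). Hif1a, the oxygen-regulated factor, was not called at 29.3 and 28.4 TPM with hairpin 1 and 27.3 and 27.7 with hairpin 2 (limma adjusted p = 0.276). Car12, a carbonic anhydrase on the cell surface, and Pfkfb3, which makes the activator of phosphofructokinase, were higher with hairpin 2 (1.38 ± 0.12, and 2.56 with a pseudocount of 0.1, against 0.81 ± 0.08, and 0.53 with each chromosome centred on its median).

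Cell cycle genes were called in both directions. Of 59 listed, 58 passed the filter, 21 were higher with hairpin 2, 14 with hairpin 1 and 23 were not called (median 0.01), and the proliferation gene Mki67 was not called (-0.06; limma adjusted p = 0.537). Of 25 mitosis genes, 13 were higher with hairpin 2 and 2 with hairpin 1, while of 26 S-phase genes 6 were higher with hairpin 2 and 9 with hairpin 1. The share called was 60.3% over the list and 57.7% of the S-phase genes, against 40.7% over all genes. Aurka, the spindle pole kinase, had 59.98 and 62.5 TPM with hairpin 1 and 86.4 and 88.3 with hairpin 2 (0.50 ± 0.05, or 0.22 with each chromosome centred on its median) and Mcm5, of the replication helicase, 155 and 155 TPM with hairpin 1 and 125 and 126 with hairpin 2 (-0.30 ± 0.04). The list counts, S-phase genes included, fell when 1 hairpin library was left out, as did the count over all genes. With chromosomes so centred 11 cell cycle genes were higher with hairpin 2, and without small RNA entries 4 were higher with hairpin 1. Of the 21, 7 lie on chromosome 2 and 3 on chromosome 16.

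Inhibitors of the cycle differed one by one. Cdkn2a (chr4:89274471-89294653), the locus of the p16 and p19 inhibitors, had 46.2 and 49.9 TPM with hairpin 1 and 172 and 174 with hairpin 2, 3.6-fold higher with hairpin 2 (1.83 ± 0.09; limma adjusted p = 0.000156). Its neighbour Cdkn2b, which encodes p15, had 9.51 and 8.18 TPM with hairpin 1 and 24 and 25.7 with hairpin 2 (1.40 ± 0.08; limma adjusted p = 0.000271), and Mtap, the next gene of the locus, was not called (118 and 111 TPM with hairpin 1 and 121 and 122 with hairpin 2; 0.09). Cdkn1b, which encodes p27, was higher with hairpin 1 (-0.41 ± 0.05), and Cdkn1a, which encodes p21, was not called (0.00). Of the driver genes, Myc was higher with hairpin 2 (71.1 and 67.3 TPM with hairpin 1 and 103 and 102 with hairpin 2; 0.56 ± 0.09), and the call of Trp53 (0.20 ± 0.05) was lost without any 1 hairpin library (limma adjusted p = 0.085 to 0.143). Plk2, a polo-like kinase and p53 target, had 6.2 and 5.24 TPM with hairpin 1 and 30.3 and 28.9 with hairpin 2 (2.19 ± 0.08; limma adjusted p = 7.38e-05). Of 11 tested p53 targets, 3 were higher with hairpin 2, 5 were higher with hairpin 1 and 3 were not called; the 5 were 1 and 2 without replicates 1 and 2 of hairpin 1, and 1 and 3 without those of hairpin 2.

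Genes listed with the conjugating enzymes, which make drugs and hormones soluble, were mostly higher in hairpin 1 cells. Of 21 tested, 13 were higher with hairpin 1 and 1 with hairpin 2, and the 13 were 13 or 14 in the fits that left out 1 library (the 1 was 0 without any hairpin library and 2 without either shNT library). Ugt1a7c had 48.7 and 49.7 TPM with hairpin 1 and 2.57 and 2.44 with hairpin 2 (-3.84 ± 0.06; limma adjusted p = 2.37e-05); the Ugt1a genes share their last exons, so reads may be divided among them, and the Gsta genes are near-identical. Gstt1, a glutathione transferase, had 11.3 and 12.3 TPM with hairpin 1 and 2.98 and 2.64 with hairpin 2 (-1.75 ± 0.10). Aldh1a3, which makes retinoic acid and is not a conjugating enzyme, had 9.88 and 11.5 TPM with hairpin 1 and 0.52 and 0.741 with hairpin 2 (-2.84 ± 0.13; limma adjusted p = 0.000148). It passed the filter only through hairpin 1, so its direction was fixed. Dhrs3, which turns retinal back into retinol, was among the largest differences, at 18.5 and 19.7 TPM with hairpin 1 and 1.69 and 1.75 with hairpin 2 (-2.88 ± 0.08). Of 12 genes of the NRF2 response to oxidants, 5 were higher with hairpin 1, Nqo1 by -0.77 ± 0.06 and Slc7a11, the cystine transporter, by -0.67 ± 0.07, and 1 with hairpin 2, Osgin1 (0.86 ± 0.06). That made 50% called, against 40.7% over all genes. The 5 were 3 without hairpin 1 replicate 2 or hairpin 2 replicate 1. Nfe2l2, which encodes NRF2, was not called (-0.06), but was with each chromosome centred on its median (-0.34; limma adjusted p = 0.00448).

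Cholesterol synthesis differed in the other direction. Of 22 tested genes 16 were higher with hairpin 2 and 6 were not called, with a median of 0.36. Hsd17b7, an enzyme of the pathway, had 6.83 and 6.36 TPM with hairpin 1 and 12.8 and 13.5 with hairpin 2 (0.90 ± 0.06; limma adjusted p = 0.000479). The controlling factor Srebf2 was not called (-0.04). Of 13 tested fatty acid genes, 4 were higher with hairpin 2, 3 were higher with hairpin 1 and 6 were not called; the 4 were 7 without either shNT library, and the 3 were 1 without either hairpin 1 library or replicate 1 of hairpin 2. Of the 13, 53.85% were called, against 40.7% over all genes. Fasn, the synthase, was among the 4 (29 and 27.7 TPM with hairpin 1 and 49.4 and 46.5 with hairpin 2; 0.74 ± 0.07; limma adjusted p = 0.00101).

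Signalling ligands differed one by one. Wnt7a had 2.39 and 2.51 TPM with hairpin 1 and 22.7 and 21.8 with hairpin 2 (2.75 ± 0.05; limma adjusted p = 2.37e-05) and Wnt4 4.76 and 5.07 TPM with hairpin 1 and 1.67 and 1.27 with hairpin 2 (-1.26 ± 0.11), so the 2 Wnt ligands ran in opposite directions. Grem1, a secreted BMP inhibitor, had 16.2 and 14.3 TPM with hairpin 1 and 0.65 and 0.642 with hairpin 2 (-3.30 ± 0.09; limma adjusted p = 3.59e-05), while Bmp4 was higher with hairpin 2 (7.32 and 7.61 TPM with hairpin 1 and 14.9 and 14.4 with hairpin 2; 0.88 ± 0.05) and Bmp2 with hairpin 1 (-0.89 ± 0.10, and -1.42 with a pseudocount of 0.1). Grem1 passed the filter only through hairpin 1, so its direction was fixed. Id3 and Id2, direct targets of BMP signalling, were higher with hairpin 1, by -0.70 ± 0.05 and -0.48 ± 0.04. Igfbp5, a second carrier of insulin-like growth factors, ran opposite to Igfbp3, at 47.9 and 40.5 TPM with hairpin 1 and 1.33 and 1.21 with hairpin 2 (-4.31 ± 0.10; limma adjusted p = 2.37e-05), and the receptor Igf1r was higher with hairpin 2 (0.66 ± 0.08).

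Of 9 tested Notch genes 4 were higher with hairpin 2 and 5 were not called, so 44.4% were called, near the 40.7% over all genes. Of the 4, Nrarp, a feedback gene of the pathway, had 20.8 and 20.3 TPM with hairpin 1 and 39.4 and 37.3 with hairpin 2 (0.87 ± 0.05). Lfng, which modifies the receptors, had 2.91 and 2.59 TPM with hairpin 1 and 6.99 and 6.14 with hairpin 2 (1.01 ± 0.09). Dll4, a ligand, was higher by 0.84 ± 0.10 (2.26 with a pseudocount of 0.1, and 0.55 with each chromosome centred on its median). The fourth, the receptor Notch2 (0.32 ± 0.09), lost its call when replicate 2 of hairpin 1 (limma adjusted p = 0.164) or either hairpin 2 library was left out (0.134 and 0.139). The ligand Jag2 was among the 5 (0.01). Il1rn, the interleukin-1 receptor antagonist, of the chemokine and NF-kB list, had 14.4 and 12.7 TPM with hairpin 1 and 1.58 and 1.6 with hairpin 2 (-2.49 ± 0.09; limma adjusted p = 7.07e-05). The share called among tested MHC class I genes was 50%, against 40.7% over all genes. Of 6 tested genes of MHC class I presentation, H2-D1, H2-K1 and Tapbp were higher with hairpin 1, by -0.72 ± 0.05, -0.64 ± 0.08 and -0.68 ± 0.11, and B2m was not called (129 and 121 TPM with hairpin 1 and 144 and 143 with hairpin 2; limma adjusted p = 0.0547), though it was, with hairpin 2 higher, without shNT replicate 1 or 2 (0.0103 and 0.00998); with each chromosome centred on its median its difference turned to -0.09, against 0.20.

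Few genes of the pathway of the targeted ligand were called, 6.67% of those tested against 40.7% over all genes. Of 15 tested genes of cAMP signalling and PTHrP response, 14 were not called, among them Gnas, the stimulatory G protein (0.18 ± 0.06; limma adjusted p = 0.0542, and 0.00597 and 0.00577 without shNT replicate 1 or 2, but a difference of -0.10 with each chromosome centred on its median), and Prkaca, the kinase subunit (-0.04). The exception was Stc2, a stanniocalcin, at 16.7 and 17.7 TPM with hairpin 1 and 3.96 and 4.64 with hairpin 2 (-1.79 ± 0.14; limma adjusted p = 0.000638). Xist, the RNA of the inactive X chromosome, was high in all 4 libraries (119.6 and 103 TPM with hairpin 1 and 108 and 101 with hairpin 2) and no Y-linked gene reached the filter, so the lines shared that pattern.

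Further genes among the 15 largest differences in each direction belonged to none of the lists. Of these, Sod3, Mcpt8, Ppp1r1b and Serpinb1a were below 1 TPM in both libraries of the lower line. They passed the filter only through the other line, so their direction was fixed. Higher with hairpin 2 were Palm3, a membrane-linked paralemmin (3.05 and 3.24 TPM with hairpin 1 and 32.6 and 31.3 with hairpin 2; 2.99 ± 0.07), Flnc, an actin crosslinker (2.81 and 2.06 TPM with hairpin 1 and 23.9 and 24.2 with hairpin 2; 2.88 ± 0.11), and Sod3, an extracellular superoxide dismutase (0.563 and 0.509 TPM with hairpin 1 and 8.54 and 10.5 with hairpin 2; 2.77 ± 0.11). Crip2, a LIM protein, had 20.04 and 21.5 TPM with hairpin 1 and 119 and 120.5 with hairpin 2 (2.47 ± 0.06), and Lrp2, the endocytic receptor megalin, 3.05 and 2.81 TPM with hairpin 1 and 18 and 17 with hairpin 2 (2.24 ± 0.06). Mcpt8, known as a basophil protease, had 0.878 and 0.803 TPM with hairpin 1 and 8.41 and 9.27 with hairpin 2 (2.42 ± 0.11), while Ptprc was near 0 and Cd14 was not, as given above. Higher with hairpin 1 were Ppp1r1b, an inhibitor of protein phosphatase 1 (18.2 and 19.4 TPM with hairpin 1 and 0.114 and 0.178 with hairpin 2; -4.11 ± 0.09, and -6.28 with a pseudocount of 0.1), Serpinb1a, an inhibitor of neutrophil proteases (19.5 and 17.9 TPM with hairpin 1 and 0.21 and 0.692 with hairpin 2; -3.78 ± 0.18), and Gpd1, the cytosolic glycerol-3-phosphate dehydrogenase (34.5 and 36.7 TPM with hairpin 1 and 4.02 and 3.9 with hairpin 2; -2.88 ± 0.06). S100g, an intestinal calcium-binding protein, had 49.4 and 60.9 TPM with hairpin 1 and 8.63 and 4.28 with hairpin 2 (-2.97 ± 0.38), its replicates apart in both lines.

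Set beside shNT, the 2 lines stood at different distances. These values share the shNT libraries and are given side by side only. For Cyr61 the difference from shNT was -2.82 with hairpin 1 and 0.04 with hairpin 2, for Cdx2 5.32 and 0.72, and for Lamb1 -1.82 and -0.03. In all 3 the hairpin 1 value was the far one. For Grem1 they were 1.94 and -1.36, and for Crip2 -1.52 and 0.96, the lines lying on either side of shNT. The median over all genes was 0.11 with hairpin 1 and 0.09 with hairpin 2. For YAP and TEAD genes it was -0.41 and 0.02, for integrins and matrix genes -0.33 and -0.10, for intestinal and gastric genes 0.59 and 0.05, and for the 22 cholesterol synthesis genes -0.86 and -0.52.

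**Figure D4:**
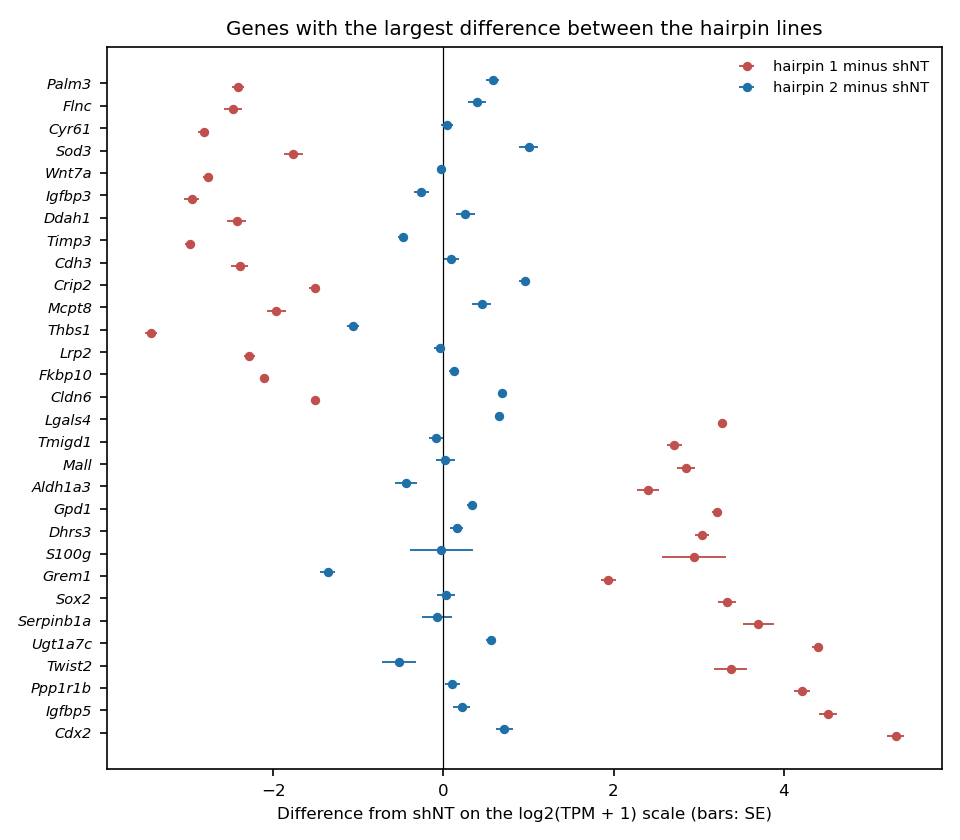
Difference from shNT (x axis, log2 of TPM + 1, with SE) of hairpin 1 (red) and hairpin 2 (blue) for the 30 genes with the largest differences between the lines, 15 in each direction. For each of the 30 the hairpin 2 point lies nearer 0; for Cyr61 the values were -2.82 and 0.04.

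Differences were not spread evenly over the genome. On chromosome 2, 473 of 906 tested genes (52.2%) were higher with hairpin 2 and 49 (5.41%) with hairpin 1, and on chromosome 16 it was 199 (55.6%) and 12 (3.35%) of 358, against 20.1% and 20.6% over all genes. The median difference was 0.28 and 0.27 there and 0.17 on chromosome 19, and between -0.12 and 0.05 on every other chromosome. Beside shNT, chromosome 2 had a median of -0.27 with hairpin 1 and 0.01 with hairpin 2, and chromosome 16 -0.21 and 0.06. Cut into 20-Mb windows, all 10 windows of chromosome 2 lay between 0.19 and 0.40 and the 4 of chromosome 16 with enough genes between 0.23 and 0.31. Of 136 windows with at least 20 genes, 2 had a median of -0.2 or less, on chromosome 5 (80 to 100 Mb, -0.28) and chromosome 7 (40 to 60 Mb, -0.22), and 15 had a median of 0.2 or more, 13 of them on these 2 chromosomes and 2 in the first 40 Mb of chromosome 9 (0.28 and 0.27, against -0.08 to 0.02 in the rest of it).

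On chromosome 1 the windows changed sign along its length, from -0.05, -0.07, -0.04, -0.10 and -0.06 up to 100 Mb to between 0.11 and 0.20 beyond it. DNA copy number was not measured, and its part in these values was not tested. With each chromosome centred on its own median, 2017 genes were higher with hairpin 2 and 2006 with hairpin 1, and 3504 of the 4634 called genes were still called. Vim, Snai2 and Hnf4a were among those that were not. Several genes described above lie on chromosome 2: Thbs1, Lama5, Gata5, Aurka and Nrarp, all higher with hairpin 2, and Grem1 and Il1rn, higher with hairpin 1.

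**Figure D5:**
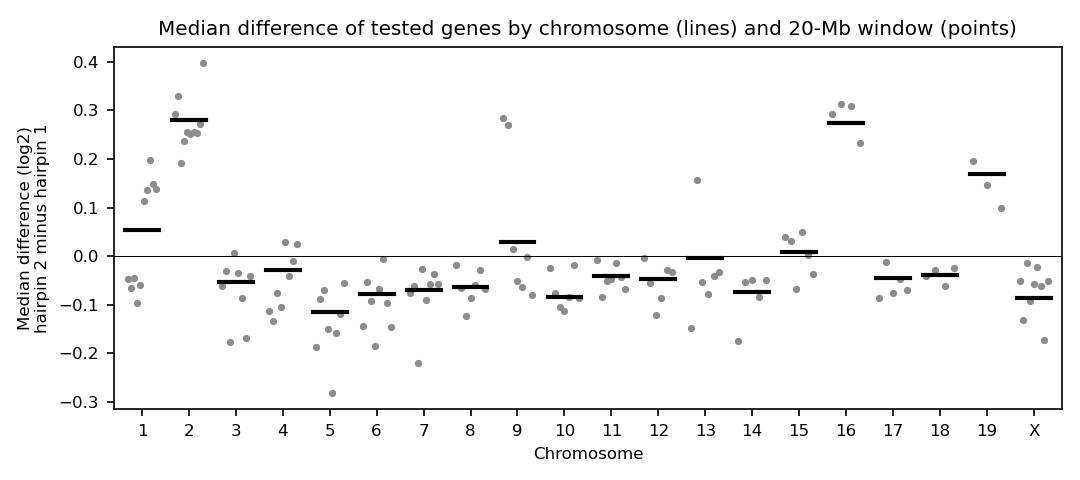
Median difference (y axis, hairpin 2 minus hairpin 1, log2 of TPM + 1) of tested genes on each chromosome (black lines) and in each 20-Mb window with at least 20 tested genes (grey points, in order along the chromosome). Chromosomes 2 and 16 stand at 0.28 and 0.27, and the first 2 windows of chromosome 9 stand apart from the rest of it.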

How the data were processed

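RNA sequencing of 6 libraries was deposited by the authors as gene-level TPM, which sums to 1000000 per library and holds no depth, so no interval or floor that needs depth was computed. Salmon, DESeq2 and R 3.5 with mm10 are named per the submitters' processing notes; other steps are not given in the sources used here. Groups come from the labels. Genes were kept where 2 or more of the 4 hairpin libraries reached a TPM of 1, log2(TPM + 1) was computed, and 1 model over all 3 groups, shNT included for its share in the estimate of spread, was fitted with limma 3.58.1 in R 4.3.3 (empirical Bayes with a mean trend, Benjamini-Hochberg adjustment, threshold 0.05). The fit was run on simulated data with independent noise and few changed genes. That setting differs from these data, where many genes were called, so it gives no assurance about the counts. Positions are those of GENCODE M21 (GRCm38, which is mm10), matched for 11314 of the tested genes (99.4%).

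The genes and lists were chosen with earlier results of these data known. Genes were named by a rule: Pthlh, the 15 largest called differences in each direction among genes with a mean of at least 5 TPM in the higher line, the called members of a list with the largest differences, abundant members not called, members that stand for a role in it, and transcription factors and driver genes. Only some of the members it took are printed. Alternatives were other pseudocounts, filters, scalings and variance priors, a replicate block, the 4 hairpin libraries alone, chromosome centring (the median difference of each chromosome taken off), removal of small RNA entries and leaving out each library. Some genes are not reported here.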

Additional observations from a re-analysis of the deposited data

How the results depend on the processing

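Of 171 named genes, 146 kept their call or lack of one in every alternative that gave them a value, which was 17 for 148 genes and 16 for the others, which fell below a mean of 5 TPM. The difference took the other sign in at least 1 alternative for 22 genes, of which Hnf4a was called (-0.14 with chromosome centring); the cause was not tested. When each of the 6 libraries was left out in turn, genes differing between the lines numbered 2435 to 5700, those higher with hairpin 2 1210 to 2767 and those higher with hairpin 1 1176 to 2933, the highest counts being those without an shNT library. In the same fits, foregut factors higher with hairpin 2 numbered 3 to 9, YAP and TEAD genes higher with hairpin 1 1 to 2, ERK and AP-1 genes higher with hairpin 2 12 to 22, epithelial genes higher with hairpin 2 8 to 17, and glycolysis and hypoxia genes higher with hairpin 1 8 to 19. Cell cycle genes numbered 13 to 23 higher with hairpin 2 and 5 to 16 higher with hairpin 1. Without small RNA entries 1461 genes were higher with hairpin 1, which moved the share of calls higher with hairpin 2 from 49.5% to 56.9%; foregut factors higher with hairpin 2 were 5, and 1 YAP and TEAD gene and 4 cell cycle genes were higher with hairpin 1. With the filter at a mean of 5 TPM, by which fewer genes are tested, 1 intestinal and gastric gene and 1 glycolysis and hypoxia gene were higher with hairpin 2, and 2 integrin and matrix genes were higher with hairpin 1. Chromosome centring left 5 foregut factors and 11 cell cycle genes higher with hairpin 2. With a replicate block 4226 genes were called, 2088 higher with hairpin 2 and 2138 with hairpin 1. The replicate numbers did not pair the samples, the correlations of same-numbered deviations being -0.051, 0.034 and 0.019. TPM keeps no depth, so what depth limits is unknown here.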
